A study of Mus musculus with 6 samples.

Results

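The 10 genes described here encode the interleukin-1 (IL-1) cytokines and the NLRP3 inflammasome of mouse macrophages. They were chosen by name, Il1a, Il1b, Il18, Il1rn, Il1r1, Il1rap, Nlrp3, Pycard, Casp1 and Gsdmd, and all 10 were found among the 54648 gene symbols of the count table. RNA-seq had been carried out on 3 WT and 3 FOXO3 KO libraries of peritoneal cells. The mice were genotyped as homozygous for an intact or a disrupted gene of the transcription factor FOXO3. Every mouse was of the C57BL/6 strain, 6 to 8 weeks old and fed standard chow, and each had received an abdominal injection of thioglycollate, an irritant that draws monocytes into the cavity, where they mature into macrophages. No sorting of the harvested cells is described, so each library may hold other cells beside macrophages. The study reports a small number of other immune cells, which it judged insignificant from the sequencing. The labels do not say whether a library is 1 mouse or a pool. The question that the comparison addresses is which macrophage transcripts differ in the absence of FOXO3.

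IL-1α, IL-1β and IL-18 are cytokines that alarm neighbouring cells. IL-1β and IL-18 are made as inactive precursors, and an inflammatory signal first has to raise the messenger RNA of the IL-1β precursor and of NLRP3 (priming). On a further signal, such as loss of potassium from the cell, NLRP3 gathers the adaptor ASC (encoded by Pycard) and caspase-1, which cuts the precursors and gasdermin D, whose fragment forms pores through which the cytokines leave. Messenger RNA levels therefore show the supply of parts, not whether the complex was assembled or the cytokines were released.

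Expression is given as CPM, the counts of a gene set to a common library size after scaling by TMM factors, which were between 0.936 and 1.10. Library totals were between 28083572 and 36424331 counts, and 15608 genes passed the filter on low counts, all 10 described here among them. Foxo3 was read at 117, 107 and 73.1 CPM in WT 1 to 3, against 4.71 in FOXO3 KO 1 and 4.29 in FOXO3 KO 3. The library labelled FOXO3 KO 2 held 104 CPM of Foxo3, which is within the WT range, so fold changes and counts are given with and without it. Over the 6 libraries Foxo3 differed by -1.40 ± 1.22 (SE) on the log2 scale. Without FOXO3 KO 2, Foxo3 differed by -4.46 ± 0.29 (SE), at an adjusted p of 0.105 by edgeR's quasi-likelihood test. Without a covariate, that test thus did not call even the targeted gene at an adjusted p under 0.05. The adjusted p by DESeq2, another count test, was 1.86e-38 without FOXO3 KO 2. WT 3 and FOXO3 KO 3 held 871 and 1130 CPM of Xist and the other 4 libraries at most 0.177. The study used mice of both sexes, so log2 ratios within each Xist class are given beside the results that they move. With Xist class as a covariate and without FOXO3 KO 2, the quasi-likelihood test called Foxo3 (log2 fold change -4.35, adjusted p 0.0054).

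Casp1, Gsdmd and Pycard had the highest median levels of the 10 per kilobase of exon. The divisor was the union of all annotated exons of a gene, 1497 bases for Casp1, 3800 for Pycard and 11360 for Il1rap. The transcripts made may be shorter than that union, so the order depends on the annotation. In CPM alone, Pycard and Casp1 had WT means of 136 and 120. Median levels over the 6 libraries were highest for Casp1, at 83.8 CPM per kb. Gsdmd followed at 44.5, Pycard at 36.2 and Il1rn, which encodes an antagonist that occupies the IL-1 receptor, at 32.3. Casp1 lay above Gsdmd in all 6 libraries, whereas Pycard lay above Il1rn in 3 of 6, so that these neighbours in the order did not separate. Il1a stood at 15.9 CPM per kb and Il18 at 12.99, and Il1a was the higher of them in 4 libraries. Nlrp3, the sensor, stood at 5.67 and Il1b at 4.22, but the place of Il1b depended on the library. It was at 1.88 to 3.85 CPM per kb in WT and 4.59 in FOXO3 KO 2, below Nlrp3 in those 4 libraries, and at 15.3 and 13.98 in FOXO3 KO 1 and 3, where Nlrp3 was at 5.75 and 5.73. The receptor chains were the lowest, with Il1rap at 2.34 and Il1r1 at 0.932.

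FOXO3 KO libraries held more Il1b and more Il1r1 than WT libraries, whereas the log2 fold changes of Pycard, Casp1 and Gsdmd were at most 0.06. All 10 genes had a positive log2 fold change, with a median of 0.29 (0.33 without FOXO3 KO 2), where the median of all genes tested was -0.01 and 7623 of 15608 were higher. The sign of 4 of the 10 turned when 1 library was left out, that of Il1rn, Casp1 and Gsdmd without WT 3 and that of Pycard without WT 1. No gene of the 15608, and so none of the 10, was called by the quasi-likelihood test, for which an adjusted p under 0.05 and more than a 1.5-fold difference were needed (0% of genes called, also 0% without FOXO3 KO 2). At an unadjusted p under 0.05 and the same fold, 2 of the 10 were higher in FOXO3 KO, Il1b and Il1r1, and 3.28% of all genes were. None of the 10 was lower at that threshold, against 0.999% of all genes. Without FOXO3 KO 2 the same genes, Il1b and Il1r1, passed it, against a background of 2.71%. DESeq2 called both at an adjusted p under 0.05, with 0.852% of the genes it adjusted called higher, and also without FOXO3 KO 2, with 0.429%. limma-voom called no gene. The lowest FOXO3 KO library was above the highest WT library for 4 of the 10 genes, Il1b, Il1r1, Il1rap and Nlrp3, a pattern seen in 7.0% of all genes, and for none of the 10 in the opposite direction, seen in 5.36%. With FOXO3 KO 2 left out it was again these 4, against 11.0% of genes, and none was lower, against 9.23%. Il1b and Il1r1 are in the panel of genes that the study chose on these same libraries, so their calls are not independent evidence. The study lists folds of 5.4 for Il1b and 2.7 for Il1r1. Here the folds were 5.41 and 2.71 without FOXO3 KO 2, and 4.18 and 4.23 with it. The calls without FOXO3 KO 2 are thus the nearest to the study's own choice. The study also reported Il1b as increased in FOXO3-deficient macrophages by qPCR, and lists no qPCR for Il1r1.

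**Figure D1:**
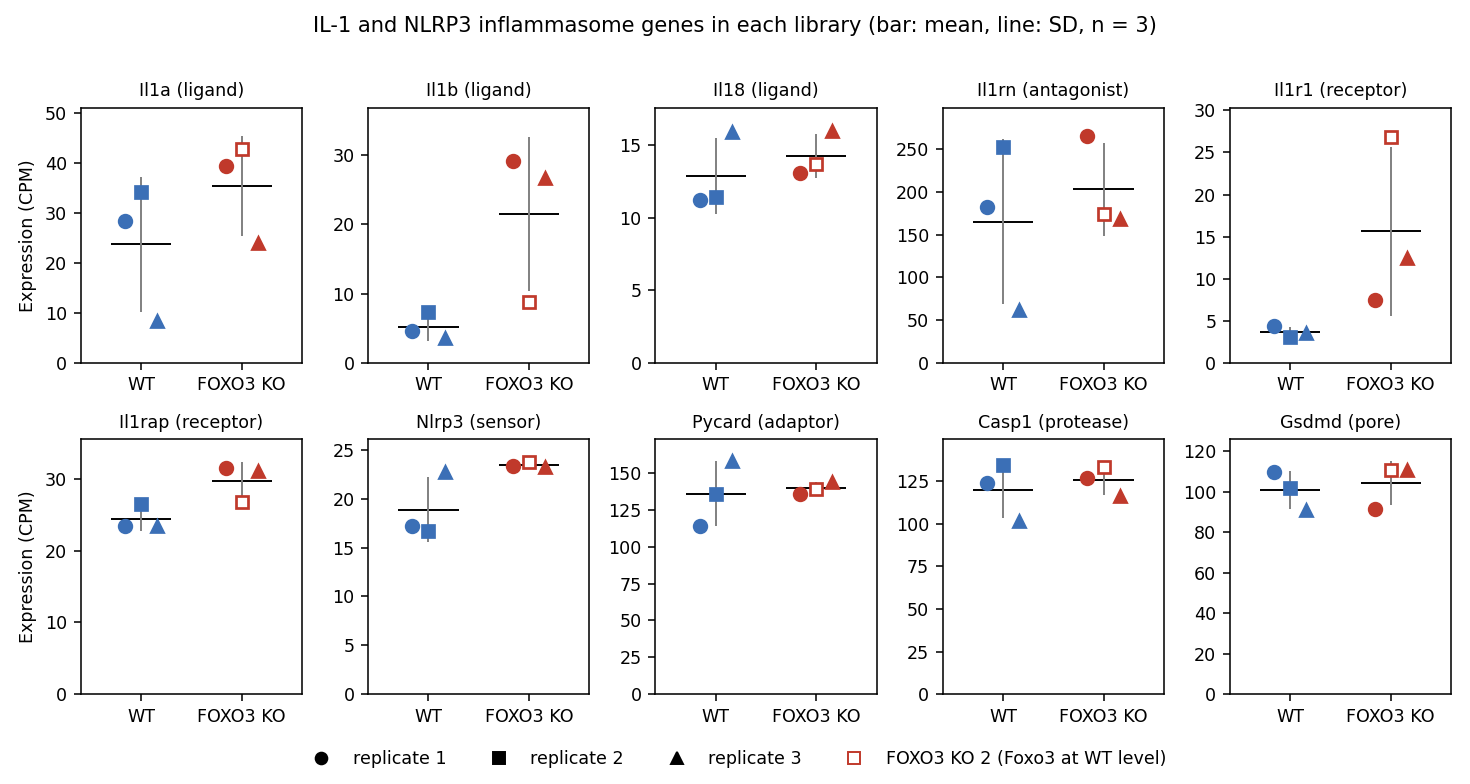
Expression of each of the 10 genes in CPM (vertical axes, from 0) in the 3 WT and 3 FOXO3 KO libraries, with the horizontal bar at the group mean and the vertical line at ±1 SD (n = 3). Il1b is high in FOXO3 KO 1 and 3 and near the WT values in FOXO3 KO 2 (open square), whereas Il1r1 is highest in FOXO3 KO 2, and Pycard, Casp1 and Gsdmd overlap between groups.

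Il1b, which encodes the precursor of IL-1β, stood at 4.54, 7.34 and 3.58 CPM in WT 1, 2 and 3, from 164, 208 and 128 counts. The antisense gene Il1bos, which overlaps it, had 8 to 16 counts in a library. Il1b stood at 29.1, 8.76 and 26.7 CPM in FOXO3 KO 1 to 3, from 821, 240 and 889 counts. The groups did not overlap, but FOXO3 KO 2 lay much nearer to WT 2 than to the other FOXO3 KO libraries. The means were 5.15 ± 1.95 CPM in WT and 21.5 ± 11.1 in FOXO3 KO (SD, n = 3 each), a log2 fold change of 2.06 ± 0.51 (SE) with an unadjusted p of 0.0063 and an adjusted p of 0.714 by the quasi-likelihood test. Without FOXO3 KO 2 the log2 fold change was 2.44 ± 0.33, a fold of 5.41, with an unadjusted p of 0.00062 and an adjusted p of 0.481. DESeq2 gave adjusted p values of 0.0132 over the 6 libraries and 1.8e-06 without FOXO3 KO 2. By signed log2 fold change, from the largest increase down, Il1b ranked 147 of 15608 genes, and 51 of 16217 without FOXO3 KO 2. Within the Xist-low libraries the log2 ratio of the means was 1.59, and between the single WT and FOXO3 KO libraries high in Xist it was 2.74.

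The libraries rich in Il1b were also those with the largest sums of neutrophil and of monocyte markers. S100a9, a calcium-binding protein of neutrophils and monocytes, stood at 0.471, 5.61 and 0.252 CPM in WT 1 to 3, and at 164, 6.93 and 117 CPM in FOXO3 KO 1 to 3. Cxcr2, a chemokine receptor of neutrophils, was at most 0.886 CPM in WT and stood at 18.7, 2.23 and 14.4 in FOXO3 KO 1, 2 and 3. Of a list of 12 neutrophil markers, 5 were higher in every FOXO3 KO library than in every WT library (7.0% of all genes tested). In FOXO3 KO 1 and 3, 6 were higher (11.0% of all genes tested). S100a8, S100a9 and Cxcr2 of this list are in the panel that the study chose on these libraries, so these counts are not independent of that choice. By qPCR the study also reported S100a8, S100a9 and Cxcr2 as increased in FOXO3-deficient macrophages. The summed level of the list was 137 to 225 CPM in WT, 231 in FOXO3 KO 2, and 503 and 426 in FOXO3 KO 1 and 3. Most of the WT sums was Csf3r, at 137, 139 and 116 CPM in WT 1 to 3. Csf3r changed little, to 159, 139 and 164 in FOXO3 KO 1 to 3. Csf3r is among the 5, though only by 139.4 CPM in FOXO3 KO 2 against 138.9 in WT 2. S100a8 was at most 11.3 CPM in WT and stood at 83.2, 12.9 and 59.8 in FOXO3 KO 1 to 3. Ly6g, Mpo, Ngp and Camp, also on the list, were below 1 CPM in every library. The summed level of 5 monocyte markers was 798 to 912 CPM in WT, 808 in FOXO3 KO 2, and 1097 and 1500 in FOXO3 KO 1 and 3. Of the 5, 2 were higher in FOXO3 KO 1 and 3 than in every WT library (11.0% of all genes tested). In every FOXO3 KO library 1 was higher (7.0% of all genes tested). None of the 5 was below 1 CPM in every library. Macrophage markers summed to between 15109 and 19857 CPM over the 6 libraries, with overlapping groups. The part of neutrophils and monocytes in the Il1b values was not tested, and in bulk RNA a larger number of such cells and more RNA per cell cannot be told apart.

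Il1a encodes IL-1α, which is active without cleavage and is often induced together with IL-1β. It stood at 28.5, 34.2 and 8.47 CPM in WT 1 to 3 and at 39.4, 42.9 and 24.1 in FOXO3 KO 1 to 3. WT 3 was far below the other libraries, FOXO3 KO 3 was below WT 1 and WT 2, and the groups overlapped. Il1a differed by a log2 fold change of 0.58 ± 0.51 (adjusted p 0.859 by the quasi-likelihood test), and 0.42 ± 0.61 without FOXO3 KO 2. The log2 ratio of the means was 0.39 within the Xist-low libraries and 1.45 in the Xist-high pair, which holds WT 3. Il1a did not follow Il1b. In counts, Il1a was 6.25, 4.65 and 2.36 times Il1b in WT 1 to 3 and 4.88 times in FOXO3 KO 2, but 1.35 times in FOXO3 KO 1 and 0.903 times in FOXO3 KO 3, with 1 count added to each gene.

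Il18, whose product drives interferon-γ from T and NK cells and which many cells transcribe without priming, stood at 11.2, 11.4 and 15.9 CPM in WT and 13.1, 13.7 and 16.0 in FOXO3 KO. The highest library of each group was the one high in Xist, and the groups overlapped. In GRCm38 the gene lies on chromosome 9 from 50554827 to 50581840 and overlaps Bco2 on the other strand, which had 72 to 245 counts against 324 to 568 for Il18 and was also highest in WT 3 and FOXO3 KO 3. No source used here says whether strand was used in the counting, so reads of such overlapping genes cannot be told apart. For Il18 the log2 fold change was 0.15 ± 0.18 (adjusted p 0.885 by the quasi-likelihood test) and 0.18 ± 0.23 without FOXO3 KO 2.

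Il1rn was the most abundant of the ligand and antagonist transcripts, and its level varied as much within WT as between groups. It stood at 182, 252 and 62.1 CPM in WT 1 to 3, and at 266, 175 and 169 in FOXO3 KO 1 to 3. The low value of WT 3 set the sign of the difference. The log2 fold change was 0.30 ± 0.49 over the 6 libraries (adjusted p 0.905 by the quasi-likelihood test), 0.39 ± 0.60 without FOXO3 KO 2 and -0.08 ± 0.24 without WT 3. Within the Xist-low libraries the log2 ratio of means was 0.02, and in the Xist-high pair, which holds WT 3, it was 1.43. WT 3 also had the largest sums of B cell and mast cell markers, 2780 and 780 CPM, where the other libraries had at most 604 and 293, and the part of this in the low Il1rn and Il1a of WT 3 was not tested. Summed T cell markers were at 21.3 to 93.4 CPM in WT and 14.8 to 36.9 in FOXO3 KO and dendritic cell markers at 46.3 to 171 and 55.4 to 99.3, with overlapping groups in each.

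Il1rn counts exceeded Il1b counts in every library, by a margin that was narrowest in FOXO3 KO 1 and 3. There were 40.1, 34.4 and 17.3 Il1rn counts per Il1b count in WT 1 to 3, 20.0 in FOXO3 KO 2, and 9.15 and 6.32 in FOXO3 KO 1 and 3. Per kilobase of annotated exon the excess was smaller, at 13.8, 11.8 and 5.98 in WT 1 to 3. On that scale it was 6.88 in FOXO3 KO 2, and 3.15 and 2.18 in FOXO3 KO 1 and 3. FOXO3 KO 2 thus lay inside the WT range and the other FOXO3 KO libraries below it. As log2 of Il1b over Il1rn, with 1 count added to each, the difference between the group means was 1.45 over the 6 libraries (exact two-sided permutation p = 0.20, adjusted over 5 pairs 0.333) and 1.91 without FOXO3 KO 2 (p = 0.20, adjusted 0.25). Exact permutation cannot go below 0.10 for 3 against 3 libraries or 0.20 for 3 against 2, so the design cannot pass the threshold.

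**Figure D2:**
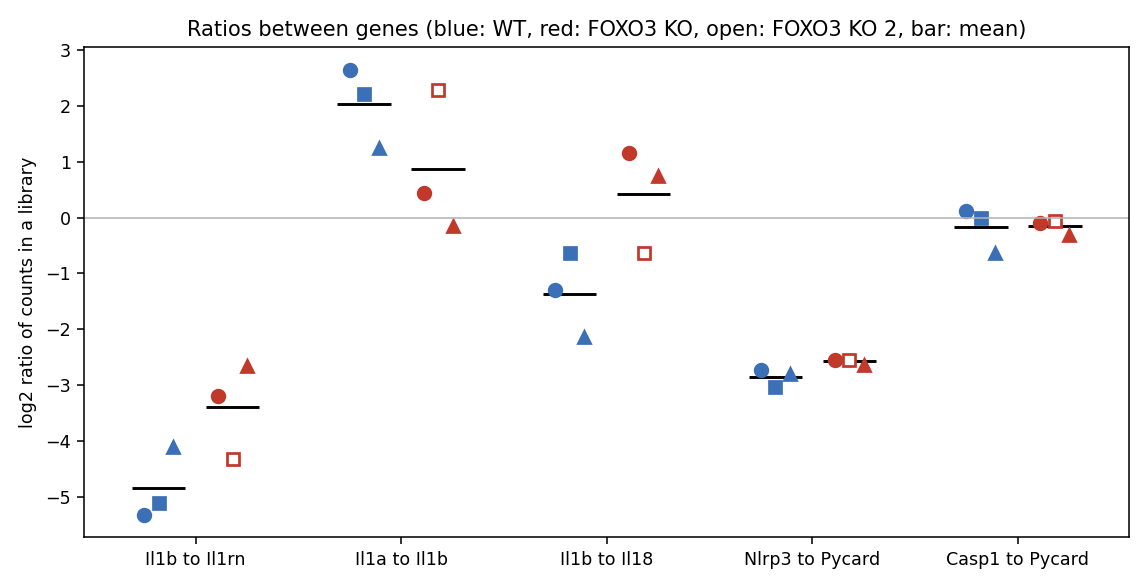
Log2 ratio of the counts of a pair of genes in a library (vertical axis), for 5 pairs, with WT in blue, FOXO3 KO in red, FOXO3 KO 2 open, marker shapes for replicates 1 (circle), 2 (square) and 3 (triangle), and the bar at the group mean. For Il1b to Il1rn and Il1b to Il18, FOXO3 KO 1 and 3 lie above all WT libraries and FOXO3 KO 2 lies among them; for Nlrp3 to Pycard, all FOXO3 KO libraries lie above WT by a small margin.

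The ligand and antagonist genes Il1a, Il1b and Il1rn lie on chromosome 2, and the bases before their start sites were read for the letters of motifs bound by 4 kinds of factor active in macrophages. In GRCm38, Il1b occupies chromosome 2 from 129364570 to 129371139 and Il1a from 129299610 to 129309972, both on the minus strand, and Il1rn lies from 24336853 to 24351494 on the plus strand. The motifs were GTAAACA for FoxO factors, TGANTCA for AP-1 and GAGGAA for PU.1. For NF-kappaB the letters were GGG, any bases at the next pair of positions, then TTTCC. Each is a single string, read on either strand, and other forms of a motif were not looked for. Matches are in capitals in the 250 bases before the start, from RefSeq on GRCm38.p6. Il1rn has several listed start sites, of which the most upstream and the one with an NF-kappaB match are shown.
Il1b, chr2:129371140-129371389, minus strand: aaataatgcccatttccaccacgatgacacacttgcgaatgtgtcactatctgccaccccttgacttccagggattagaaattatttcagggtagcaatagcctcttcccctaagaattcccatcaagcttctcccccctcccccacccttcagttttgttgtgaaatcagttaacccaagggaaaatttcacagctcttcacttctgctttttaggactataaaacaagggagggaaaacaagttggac
Il1a, chr2:129309973-129310222, minus strand: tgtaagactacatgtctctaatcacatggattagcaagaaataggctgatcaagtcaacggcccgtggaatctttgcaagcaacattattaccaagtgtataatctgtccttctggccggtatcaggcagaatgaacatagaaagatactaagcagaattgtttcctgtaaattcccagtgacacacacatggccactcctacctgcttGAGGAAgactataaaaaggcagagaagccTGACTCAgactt
Il1rn, upstream start, chr2:24336610-24336859, plus strand: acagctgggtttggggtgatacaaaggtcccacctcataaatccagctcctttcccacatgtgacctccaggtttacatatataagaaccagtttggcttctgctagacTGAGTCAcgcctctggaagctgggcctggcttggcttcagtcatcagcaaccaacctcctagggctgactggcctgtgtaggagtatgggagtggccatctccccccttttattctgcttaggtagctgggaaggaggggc
Il1rn, downstream start, chr2:24345121-24345370, plus strand: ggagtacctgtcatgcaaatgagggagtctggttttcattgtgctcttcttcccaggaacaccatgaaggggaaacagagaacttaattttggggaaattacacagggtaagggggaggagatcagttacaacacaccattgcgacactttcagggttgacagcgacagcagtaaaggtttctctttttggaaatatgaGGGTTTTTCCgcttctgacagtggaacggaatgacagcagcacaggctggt
The Il1b window held none of the 4 motifs. The Il1a window held PU.1 and AP-1 letters that begin at -41 and -12 from the start. The Il1rn windows held an AP-1 match at -141 and an NF-kappaB match at -51. Of the 10 genes, all but Gsdmd, 9 in number, had a window in the table, with 13 windows in all, some of which overlap. The FoxO letters were in none of the 13, against 3.17% of all 32851 windows of this length. The NF-kappaB letters were in 1 of 13 (1.41% of all), AP-1 in 2 (6.75%) and PU.1 in 4 (23.3%), with the PU.1 matches in Il1a, Casp1, Pycard and Nlrp3. A match describes letters and not a bound site, and these short windows leave out distal enhancers.

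Il1r1, the receptor chain that binds IL-1α and IL-1β, was low in WT and higher in FOXO3 KO, and its order among the FOXO3 KO libraries was the opposite of that of Il1b. The gene lies on chromosome 1 of GRCm38 from 40225080 to 40317257 on the plus strand. It stood at 4.35, 3.11 and 3.61 CPM in WT 1 to 3 (157, 88 and 129 counts), and at 7.51, 26.9 and 12.5 in FOXO3 KO 1, 2 and 3 (212, 736 and 416 counts). The groups did not overlap, and the highest library was the one that carried Foxo3 at the WT level. This gave a log2 fold change of 2.08 ± 0.48 (unadjusted p 0.0046, adjusted p 0.714 by the quasi-likelihood test), and 1.44 ± 0.31, a fold of 2.71, without FOXO3 KO 2 (adjusted p 0.793). DESeq2 gave adjusted p values of 0.0046 and 0.0163 with and without that library. The log2 ratio of the means was 2.06 within the Xist-low libraries and 1.66 within the Xist-high pair.

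Transcripts of connective tissue and mesothelium, the lining of the cavity, were also highest in FOXO3 KO 2. Of a list of 7 stromal markers, 6 had their highest value there. In every FOXO3 KO library 5 were higher than in every WT library (7.0% of all genes tested). Col1a1 and Krt19 of this list are in the panel that the study chose on these libraries. The summed level of the list was 30.4 to 56.6 CPM in WT, and 63.2, 351 and 106 CPM in FOXO3 KO 1, 2 and 3. Col1a1, a chain of type I collagen, stood at 7.81, 6.35 and 5.20 CPM in WT 1 to 3 and at 12.5, 50.4 and 34.5 in FOXO3 KO 1 to 3, and the mesothelial marker Msln was below 1 CPM in every library. As a description over the 6 libraries, the log2 levels of Il1r1 had a Pearson r of 0.979 with Pdgfra and 0.976 with Col1a1, and of 0.467 with Il1b. The part of stromal cells in the Il1r1 values was not tested.

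**Figure D3:**
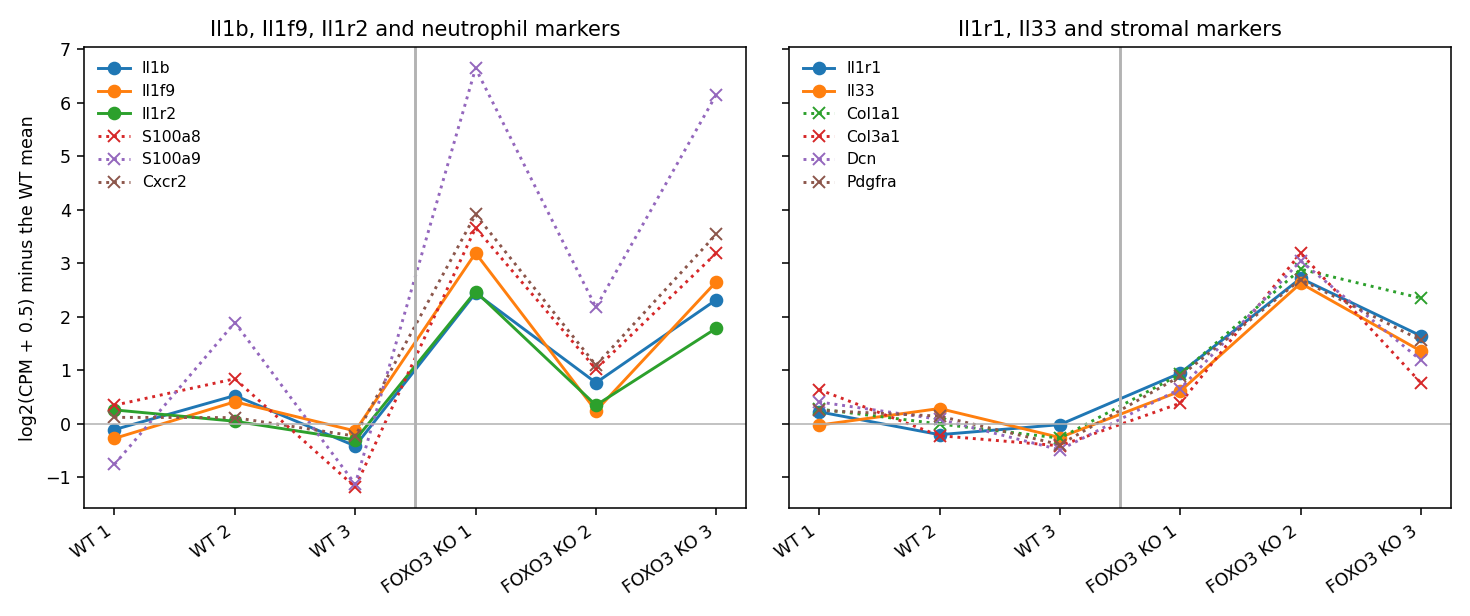
Log2(CPM + 0.5) minus its WT mean (vertical axis) in each library for Il1b, the IL-1 family genes Il1f9 and Il1r2 and 3 neutrophil markers (left), and for Il1r1, Il33 and 4 stromal markers (right); markers are dotted. The left genes peak in FOXO3 KO 1 and 3 and the right genes peak in FOXO3 KO 2. All 3 neutrophil markers (S100a8, S100a9 and Cxcr2) and Col1a1 are in the panel that the study chose on these libraries.

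Il1rap, the accessory chain without which Il1r1 does not signal, lies on chromosome 16 of GRCm38 from 26581704 to 26730117. It stood at 23.5, 26.5 and 23.4 CPM in WT and at 31.5, 26.7 and 31.1 in FOXO3 KO 1 to 3. The groups were separated only by the small step from 26.5 in WT 2 to 26.7 in FOXO3 KO 2, and FOXO3 KO 1 and 3 stood together above both. For Il1rap the log2 fold change was 0.28 ± 0.11 (unadjusted p 0.0449, adjusted p 0.839 by the quasi-likelihood test), and 0.36 ± 0.13 without FOXO3 KO 2 (adjusted p 0.994). The difference was under the fold threshold of 1.5. Among 13220 genes with a mean of at least 1 CPM, those with the most similar log2 profile to Il1b over the 6 libraries were Metap1 (Pearson r 0.996), S100a9 (0.996), Rgs3 (0.992), Il1rap (0.991) and Treml4 (0.990), which is a description of 6 points. The size differed widely between them, with log2 fold changes of 5.55 for S100a9, 1.13 for Treml4 and 0.20 for Metap1.

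Nlrp3, on chromosome 11 of GRCm38 from 59541568 to 59566956, stood at 17.3, 16.7 and 22.7 CPM in WT 1 to 3 and at 23.3, 23.8 and 23.3 in FOXO3 KO 1 to 3. The FOXO3 KO libraries, FOXO3 KO 2 included, were nearly equal, and WT 3 was close to them while WT 1 and WT 2 were lower. The log2 fold change was 0.31 ± 0.15 (unadjusted p 0.0763, adjusted p 0.839 by the quasi-likelihood test), 0.30 ± 0.18 without FOXO3 KO 2 and 0.48 without WT 3, with an adjusted p of 0.440. Within the Xist-low libraries the log2 ratio of means was 0.46 and within the Xist-high pair it was 0.03. The profile most like that of Nlrp3 over the 6 libraries was that of Clec4e (Pearson r 0.997), which encodes the C-type lectin receptor Mincle, followed by Spred2 (0.986), Zfp820 (0.977), Gm45551 (0.973) and Nid2 (0.973).

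The adaptor (Pycard), the protease (Casp1) and the pore (Gsdmd) overlapped between groups. In GRCm38, Pycard lies on chromosome 7 from 127989708 to 127993867, Casp1 on chromosome 9 from 5298517 to 5307265 and Gsdmd on chromosome 15 from 75862327 to 75867408. Pycard stood at 114, 136 and 158 CPM in WT and 136, 139 and 144 in FOXO3 KO, or 0.04 ± 0.14 as log2 fold change. Casp1 stood at 124, 135 and 102 CPM in WT and 127, 133 and 116 in FOXO3 KO, or 0.06 ± 0.13 as log2 fold change. Gsdmd stood at 110, 102 and 90.9 CPM in WT and 91.5, 111 and 111 in FOXO3 KO, or 0.05 ± 0.13 as log2 fold change. Each had at least 2582 counts in every library, and the FOXO3 KO values lay within the WT range for Pycard and Casp1 and close around it for Gsdmd. Without FOXO3 KO 2 the log2 fold changes were 0.05 ± 0.18, 0.02 ± 0.17 and 0.00 ± 0.16 in the same order, and leaving out WT 1 turned the sign of Pycard while leaving out WT 3 turned that of Casp1 and Gsdmd. The ratio of Nlrp3 to Pycard counts was 0.152, 0.123 and 0.144 in WT and 0.172, 0.171 and 0.162 in FOXO3 KO, a difference of 0.27 on the log2 scale at the smallest p that 3 against 3 allows (exact two-sided permutation p = 0.10, adjusted 0.333), and of 0.26 without FOXO3 KO 2 (exact p = 0.20). The log2 ratio of Casp1 to Pycard differed by 0.02 (exact permutation p = 1), and by -0.030 without FOXO3 KO 2.

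**Figure D4:**
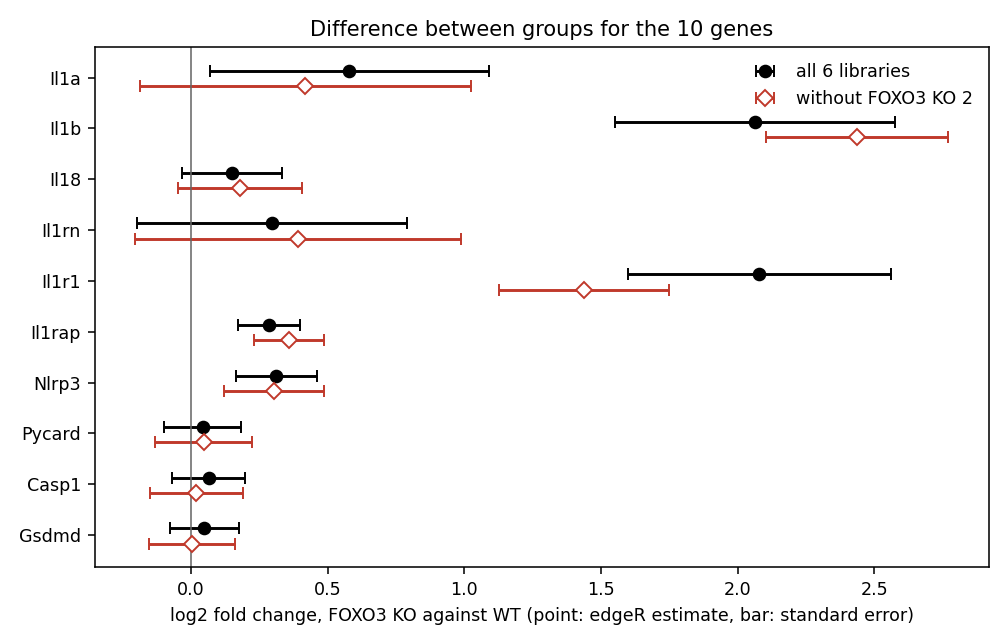
Log2 fold change of FOXO3 KO against WT (horizontal axis) for the 10 genes, from all 6 libraries (black) and without FOXO3 KO 2 (red, open), as the edgeR estimate with a bar of ±1 standard error. Il1b and Il1r1 stand apart at about 2.06 and 2.08 over 6 libraries, and leaving out FOXO3 KO 2 raises Il1b to 2.44 and lowers Il1r1 to 1.44.

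A wider list held 69 other genes of the pathway, of which 62 passed the filter and 4 were listed at 0 in every library. None was called by the quasi-likelihood test. At an unadjusted p under 0.05 with a fold over 1.5, 9 of the 62 were higher in FOXO3 KO (3.28% of all genes) and 0 lower (0.999%), and without FOXO3 KO 2 there were 8 higher (2.71%). DESeq2 called 4 higher (0.852% of all genes), and 4 without FOXO3 KO 2 (0.429%). Groups did not overlap for 11 higher and 3 lower genes, against 7.0% and 5.36% of all genes, so the share of lower genes was near the background. Without FOXO3 KO 2 there were 16 and 5, against 11.0% and 9.23%. The median log2 fold change of the 62 was 0.08, or 0.01 without FOXO3 KO 2, with 39 higher. By role, the median was 2.6 for the 3 tested ligands and antagonists, 0.24 for the 6 receptors and 0.38 for the 12 genes that IL-1 induces. It was 0.05 for the 11 genes that carry the signal below the receptors and -0.04 for the 12 that activate or restrain NLRP3. For the 10 other inflammasome sensors it was 0.0005, and for the 8 other proteases, pores and rupture genes 0.08. These medians were not tested against each other. Nlrp1b, 1 of the sensors, passed the unadjusted threshold at a log2 fold change of 0.76 ± 0.30, with overlapping groups. Without FOXO3 KO 2 its log2 fold change was 0.77 ± 0.37 and it did not pass. Receptors and induced genes also held members that were lower, such as Sigirr, a receptor that restrains IL-1 signalling, at a log2 fold change of -0.88 ± 0.58, and Saa3, an induced gene, at -0.29 ± 0.46. Without FOXO3 KO 2 these were -0.88 ± 0.72 and -0.77 ± 0.43. Without WT 3 they were 0.02 ± 0.30 and 0.22 ± 0.36, so with FOXO3 KO 2 kept, both signs depended on WT 3. Saa3 stood at 462, 425 and 998 CPM in WT 1 to 3 and at 377, 804 and 361 in FOXO3 KO 1 to 3. FOXO3 KO 1 and 3 thus lay below every WT library for Saa3, and FOXO3 KO 2 did not.

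Il1f9, also called Il36g, encodes IL-36γ, an IL-1 family cytokine of barrier tissue and myeloid cells. It stood at 0.360, 0.882 and 0.447 CPM in WT 1 to 3 and at 9.0, 0.730 and 6.06 in FOXO3 KO 1, 2 and 3, so that FOXO3 KO 2 lay inside the WT range. The log2 fold change was 3.23 ± 0.92 (adjusted p 0.714 by the quasi-likelihood test and 0.0167 by DESeq2), and 3.74 ± 0.49 without FOXO3 KO 2 (0.437 and 9.64e-10). Il1r2, a decoy receptor that binds IL-1 without signalling, stood at 0.692, 0.529 and 0.308 CPM in WT and at 5.03, 0.766 and 2.94 in FOXO3 KO. Its log2 fold change was 2.51 ± 0.72 (adjusted p 0.714 by the quasi-likelihood test and 0.0481 by DESeq2) and 2.96 ± 0.48 without FOXO3 KO 2 (0.718 and 4.87e-05). Both followed Il1b over the 6 libraries, with Pearson r of 0.969 for Il1f9 and 0.952 for Il1r2, and with them the neutrophil markers (Cxcr2 and Il1r2, 0.980).

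Il33, an alarm cytokine kept in the nuclei of lining and connective tissue cells, followed Il1r1 (Pearson r 0.962 over 6 libraries) and not Il1b (0.413). It stood at 0.415, 0.635 and 0.280 CPM in WT and at 0.921, 5.25 and 1.89 in FOXO3 KO 1, 2 and 3. The log2 fold change was 2.6 ± 0.72 over the 6 libraries and 1.67 ± 0.52 without FOXO3 KO 2, and the adjusted p by DESeq2 was 0.0372 with that library and 0.524 without it, so the call rested on it. The stromal marker Pdgfra had an r of 0.986 with Il33.

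Of 12 tested genes known to be induced by IL-1, 4 were higher in FOXO3 KO at an unadjusted p under 0.05 with a fold over 1.5 (3.28% of all genes) and 0 were lower, and the groups did not overlap for 6 (7.0%), all higher. Without FOXO3 KO 2, 3 passed (2.71%), since Lcn2 no longer did. The groups then did not overlap for 6 higher genes (11.0% of all genes) and 1 lower gene, Saa3 (9.23%). Ccl2, a chemokine for monocytes, stood at 6.09, 9.49 and 4.75 CPM in WT and 25.9, 15.0 and 19.3 in FOXO3 KO, and its log2 fold change was 1.57 ± 0.32 (adjusted p 0.714 by the quasi-likelihood test and 0.0051 by DESeq2). It was the only one of these genes that DESeq2 called, also without FOXO3 KO 2, where its log2 fold change was 1.74 ± 0.34 by edgeR (adjusted p 0.770) and 1.74 ± 0.42 by DESeq2 (adjusted p 0.0084). Ptgs2, the inducible cyclooxygenase, stood at 1.05, 1.59 and 0.643 CPM in WT and 3.33, 2.34 and 2.40 in FOXO3 KO, and its log2 fold change of 1.30 ± 0.39, or 1.39 ± 0.46 without FOXO3 KO 2, was called by neither tool. Lcn2, which encodes an iron-withholding protein that neutrophils also carry, had a log2 fold change of 0.97 ± 0.36 (1.05 ± 0.43 without FOXO3 KO 2), and Cxcl5, a neutrophil chemokine of at most 0.839 CPM, one of 2.11 ± 0.39 (1.84 ± 0.41). Cxcl1, another neutrophil chemokine, overlapped between groups and stood at 3.28 to 4.13 CPM in WT and 3.0 to 5.44 in FOXO3 KO. Ccl2, Il1f9, Il1r2, Kcnk13, S100a8, S100a9, Cxcr2, Treml4, Col1a1 and Krt19 are in the panel that the study chose on these libraries, and their values are not independent of that choice.

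**Figure D5:**
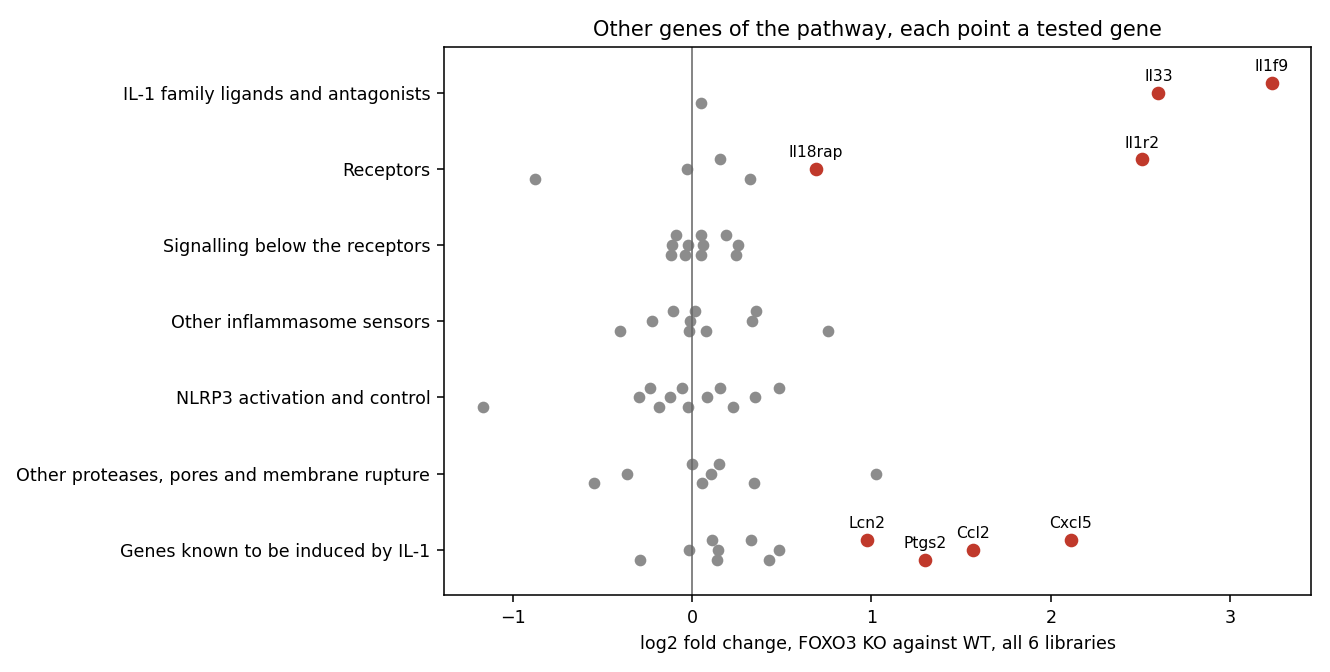
Log2 fold change of FOXO3 KO against WT over the 6 libraries (horizontal axis) for the 62 tested genes of the wider list, grouped by role (vertical axis), each point a gene. The 8 named genes in red are ligands, receptors and induced genes, and the signalling genes below the receptors lie close to 0.

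The receptor chain for IL-18, Il18rap, stood at 9.86, 12.7 and 13.6 CPM in WT and 19.0, 13.9 and 25.3 in FOXO3 KO, and its log2 fold change was 0.69 ± 0.25 (adjusted p 0.836 by the quasi-likelihood test), or 0.88 ± 0.22 without FOXO3 KO 2 (0.867). Its groups did not overlap, and FOXO3 KO 2 was next to WT 3. Kcnk13, a potassium channel, stood at 30.3, 28.7 and 32.2 CPM in WT and 47.1, 35.2 and 45.1 in FOXO3 KO, and was called by DESeq2 without FOXO3 KO 2 (log2 fold change 0.61, adjusted p 0.0297) and not with it. The 3 genes below WT in every FOXO3 KO library were Aim2, a sensor of DNA in the cytosol, at 83.2 to 97.1 CPM in WT and 70.2 to 81.4 in FOXO3 KO; Nek7, a kinase that NLRP3 needs, at 175 to 179 and 151 to 172; and Irak1, a kinase below the IL-1 receptor, at 141 to 155 and 134 to 138. Their log2 fold changes were -0.22, -0.12 and -0.11, or -0.27, -0.16 and -0.097 without FOXO3 KO 2, and none passed an unadjusted p under 0.05. Irak4, another kinase below the IL-1 receptor, was higher in every FOXO3 KO library, at 52.1 to 64.4 CPM in WT and 66.0 to 73.0 in FOXO3 KO. Nfkbiz and Zc3h12a, genes that IL-1 induces, were likewise higher in every FOXO3 KO library. The log2 fold changes of Irak4, Nfkbiz and Zc3h12a were 0.26, 0.33 and 0.14, or 0.30, 0.36 and 0.13 without FOXO3 KO 2. None of them passed an unadjusted p under 0.05 either.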

How the data were processed

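The authors deposited estimated counts per gene symbol for 3 WT and 3 FOXO3 KO libraries (paired reads of 76 bp), without normalization. The submitters' processing notes name STAR 2.6.1d, kallisto 0.46.0, DESeq2 and mm10, with no role. For the counting program and the annotation, neither is given in the sources used here. All values were rounded to whole counts, and 59.4% of those above 0 already lay within 0.01 of one. FOXO3 KO was compared with WT by edgeR 4.0.16 under R 4.3.3 (filterByExpr, TMM, glmQLFit, glmQLFTest, Benjamini-Hochberg over all genes tested), with the standard error as the log2 fold change over the root of the statistic. A gene was called at an adjusted p under 0.05 with more than a 1.5-fold difference, as in the study. Alternatives were edgeR's likelihood ratio test, DESeq2 1.42.0, limma-voom 3.58.1, other scalings and filters, the replicate block, each library left out, and a covariate for Xist. Python 3.11.15 with scipy 1.17.1 gave the exact tests. Fits were tested on simulated data. Gene positions and exon lengths came from GENCODE M21. p-values measure the spread between these libraries, and the labels do not say how many mice each holds.

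The 10 genes, the wider list of 69 genes, the 8 marker lists, the motifs and the tests were chosen with earlier results of these data known. Named beside the 10 were Foxo3, defining markers, and the 5 profiles most like Il1b and like Nlrp3. From the wider list, genes called by any tool or with groups that did not overlap were named, by the 8 largest log2 fold changes. Kcnk13, Aim2, Nek7, Irak1, Irak4, Nfkbiz, Zc3h12a, Nlrp1b, Cxcl1, Sigirr and Saa3 were added after their values were seen. Profiles were compared on log2(CPM + 0.5).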

Additional observations from a re-analysis of the deposited data

How the results depend on the processing

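The quasi-likelihood test called 0 genes over the 6 libraries and 0 to 0 with each library left out, and 0 of the 10 genes described here under the same settings. Other tests called more. edgeR's likelihood ratio test called 109 of 15608 genes and 2 of the 10, DESeq2 called 160 and 2, DESeq2 without FOXO3 KO 2 called 108 and 2, and the main test with Xist class as a covariate and without FOXO3 KO 2 called 17 and 0, with Il1b at an adjusted p of 0.0587. In each case the 2 were Il1b and Il1r1. limma-voom, the other scalings, the other filters and the Xist covariate over 6 libraries called 0. With the replicate number as a block 0 genes were called, and 472 higher and 389 lower passed an unadjusted p under 0.05 with a fold over 1.5, against 512 and 156 without the block. The deviations of same-numbered libraries from their group means had correlations of 0.256, -0.0722 and 0.524. These mixed values do not settle whether the numbers pair the libraries.

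With each library left out in turn, log2 fold changes lay between 1.78 and 2.44 for Il1b, 1.44 and 2.41 for Il1r1, 0.19 and 0.94 for Il1a, -0.08 and 0.74 for Il1rn, 0.05 and 0.34 for Il18, 0.24 and 0.36 for Il1rap, 0.23 and 0.48 for Nlrp3, -0.03 and 0.16 for Casp1, -0.08 and 0.18 for Pycard, and -0.01 and 0.13 for Gsdmd. Differences in log2 ratio lay between 1.09 and 1.91 for Il1b to Il1rn, -1.89 and -0.67 for Il1a to Il1b, 1.38 and 2.30 for Il1b to Il18, 0.18 and 0.34 for Nlrp3 to Pycard, and -0.21 and 0.17 for Casp1 to Pycard. The sign turned to -0.085 for Il1rn, -0.031 for Casp1, -0.010 for Gsdmd and -0.21 for Casp1 to Pycard without WT 3, to -0.076 for Pycard without WT 1, and to -0.012 and -0.030 for Casp1 to Pycard without FOXO3 KO 1 and FOXO3 KO 2. Values within each Xist class, chosen after seeing the data, turned Pycard to -0.13 in the Xist-high pair and Gsdmd to -0.065 in the Xist-low libraries. The cause of these shifts was not tested. With 3 libraries a group the exact tests cannot pass the threshold, and differences as small as those of Pycard, Casp1 and Gsdmd were not detectable beyond the spread between libraries.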

Other observations

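For some genes around the inflammasomes and IL-18 the libraries of a group spanned a wider range than the distance between the group means. The interferon-induced GTPase Gbp2, which assists inflammasome assembly in infected cells, stood at 156, 66.3 and 89.9 CPM in WT 1 to 3 and at 42.6, 214 and 110 in FOXO3 KO 1 to 3. Il18bp, a secreted protein that captures IL-18 and is also induced by interferon, stood at 14.5, 6.63 and 12.9 CPM in WT and 5.46, 21.3 and 8.51 in FOXO3 KO. Gbp5 stood at 16.8, 8.47 and 39.3 CPM in WT and 6.77, 26.6 and 21.5 in FOXO3 KO. In all of these FOXO3 KO 1 was the lowest library, and FOXO3 KO 2 was the highest of its group. They were picked from the wider list after their values were seen.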
